A study of Mus musculus with 4 samples.

Results

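The genes described here carry collagen from its nascent chain to the crosslinked fibril. They comprise the enzymes and chaperones that modify and fold procollagen in the endoplasmic reticulum (ER), the coat that exports it, the proteinases that trim it and the lysyl oxidases that crosslink it. The 34 genes were taken by symbol, each through the probe sets annotated to it alone and, where a gene had more than 1, through the brightest, and all 34 were measured among 19938 genes tested. Each was read on 4 whole-transcript arrays of total RNA from ATDC5 cells, a mouse chondroprogenitor line. Day 15 arrays (n = 2) came from cells whose basal medium was supplemented for 15 days with insulin, transferrin and selenite. Day 0 arrays (n = 2) came from undifferentiated cells in that medium, which contains serum, and ascorbic acid was in the medium of both groups. No group was kept for 15 days without the supplement, so time in culture and the supplement cannot be told apart. The labels do not say whether the samples came from separate cultures, so errors and p-values describe the spread between these arrays, which may be technical.

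Collagen chains are hydroxylated on proline and lysine while they are still unfolded. Hydroxylation of proline at the 4 position keeps the triple helix stable at body temperature, and the enzymes that do it use ascorbate and oxygen. Hydroxylysine carries sugars and later takes part in crosslinks, which form outside the cell after the propeptides have been cut off. Procollagen is long and stiff and needs an adapted COPII coat to leave the ER, and defects of that coat are known for affecting cartilage and bone.

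Signals are given as log2(intensity + 1) after quantile normalization, with the array of replicate 1 before that of replicate 2, and differences as day 15 minus day 0 in log2. Cells of both days carried signal for the chondrocyte factor Sox9, at 12.26 and 12.75 log2 at day 15, against 12.19 and 11.88 at day 0. Of 10 chondrocyte markers 6 rose and none fell, and of 6 hypertrophic markers 5 rose and none fell by limma's adjusted p over all genes. Among all genes tested, 1.3% were called higher and 0.411% lower. Of 3 osteoblast markers measured none was called, all 3 had a difference above 0 and 2 had their days apart. Those 2 were the bone phosphate regulator Phex, with a difference of 2.55 log2 (limma adjusted p = 0.0830), and the osteoblast factor Sp7, with 0.81 (0.436). The mean of the 3 osteoblast markers was 10.01 and 10.40 at day 15, against 8.79 and 9.30 at day 0, and their part in the values below was not tested. No adipocyte or skeletal muscle marker was called, and 1 of the 10 adipocyte and muscle markers reached the median signal of all genes. Several macrophage and myelin markers differed by replicate number, 4 of 6 (C1qb, C1qa, Csf1r and Tyrobp) and 2 of 4 (Mbp and Mobp) being over 1 log2 higher in replicate 1 on both days, and none was called between the days. The mean of 6 macrophage markers was 9.09 in replicate 1 and 7.04 in replicate 2 of day 15, and 9.35 in replicate 1 and 7.22 in replicate 2 of day 0. The mean of 4 myelin markers was 8.36 and 6.97 at day 15 and 8.29 and 6.97 at day 0, in the same order of replicates. The osteoblast marker Dmp1 differed by replicate number the other way, with 7.61 and 9.30 at day 15 and 7.49 and 9.14 at day 0. Among the 34 genes, replicate 1 minus replicate 2 had a median of 0.06 log2 at day 15 and ran from −0.81 (P3h2) to 0.74 (P4ha3). At day 0 its median was 0.07 log2 and it ran from −0.35 (Loxl1) to 1.00 (Adamts3). The part of that replicate signal in the values below was not tested, and differences within each replicate number are given for some of the genes.

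At day 15 most of the collagen processing genes lay slightly above their day 0 level, and 1 of them passed the test over all genes. Pcolce2, an enhancer of the proteinase that removes the C-propeptide, rose 2.62-fold. In bulk RNA, more cells that express a gene and more of its RNA per cell cannot be told apart. In all, 1 of 34 was called higher, beside 1.3% of all genes tested, and 0 were called lower, beside 0.411% (limma, adjusted over all genes by the Benjamini-Hochberg method, threshold 0.05). At an unadjusted p below 0.05, 9 of the 34 were higher (26.5%, against 7.38% of all genes) and 0 were lower (against 4.78%), and these 9 differed by 1.41-fold to 2.62-fold. Omitting day 0 replicate 2 gave a count of 4, omitting day 15 replicate 1 gave a count of 5, centring each array on its median also gave 5, and the called count was 0 in these fits and without day 15 replicate 2. The median difference of the 34 was 0.17 log2, against 0.02 for all genes. A difference above 0 was found for 28 of 34 (82.4%, against 53.2% of all genes). That count takes Adamts3 by its brightest probe set, and with the mean of all probe sets it was 27. Day 15 exceeded day 0 within both replicate numbers for 17 of the 34 (6792 of all 19938 genes), and was below within both for 2 (5633 of all genes). Both day 15 arrays lay above both day 0 arrays for 15 of the 34 (44.1%, against 22.3% of all genes), and both lay below for 1 of them (2.94%, against 17.8%). Days that were apart with a difference of at least 0.5 log2 between their means were seen for 8 of the 34, all higher (23.5%, against 7.56% of all genes). All but 1 of the 34 had a mean signal at or above the all-gene median. Among all genes with such a signal, 23.4% had both day 15 arrays above both day 0 arrays, and 9.58% did so with a difference of at least 0.5 log2. Of the same genes, 1.66% were called higher, 9.22% were higher at an unadjusted limma p below 0.05 and 48.8% had a difference above 0. Their median difference was −0.008 log2.

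**Figure D1:**
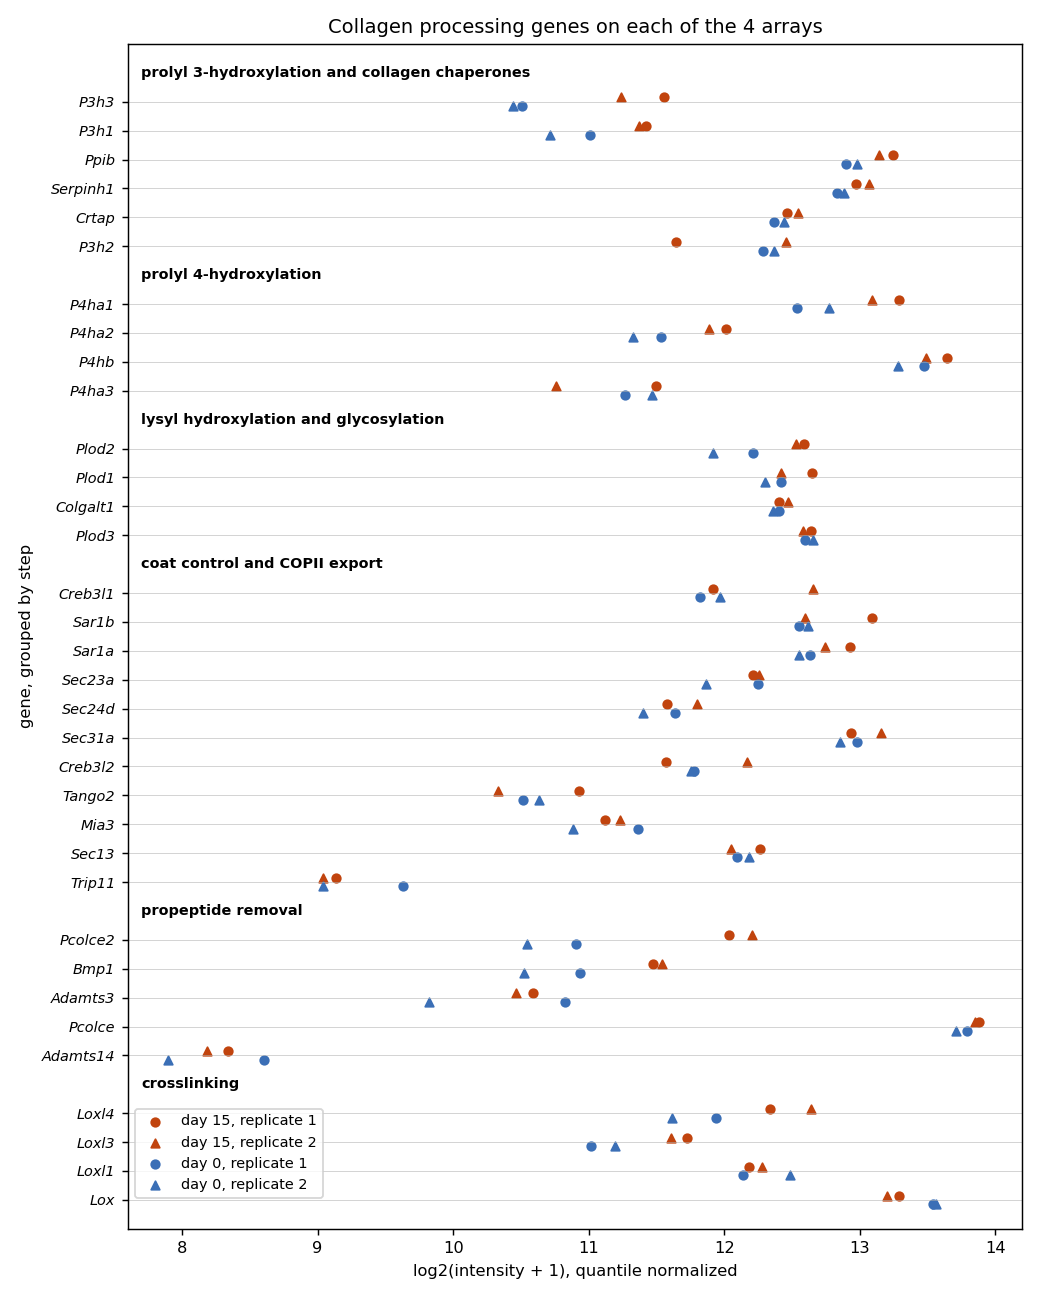
Signal of each of the 34 genes on each array, as log2(intensity + 1) after quantile normalization (x axis), grouped by step and ordered by difference within a step. Orange marks are day 15 and blue marks day 0, with circles for replicate 1 and triangles for replicate 2; the orange marks of Pcolce2 lie at 12.04 and 12.20, right of its blue marks at 10.91 and 10.55.

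**Figure D2:**
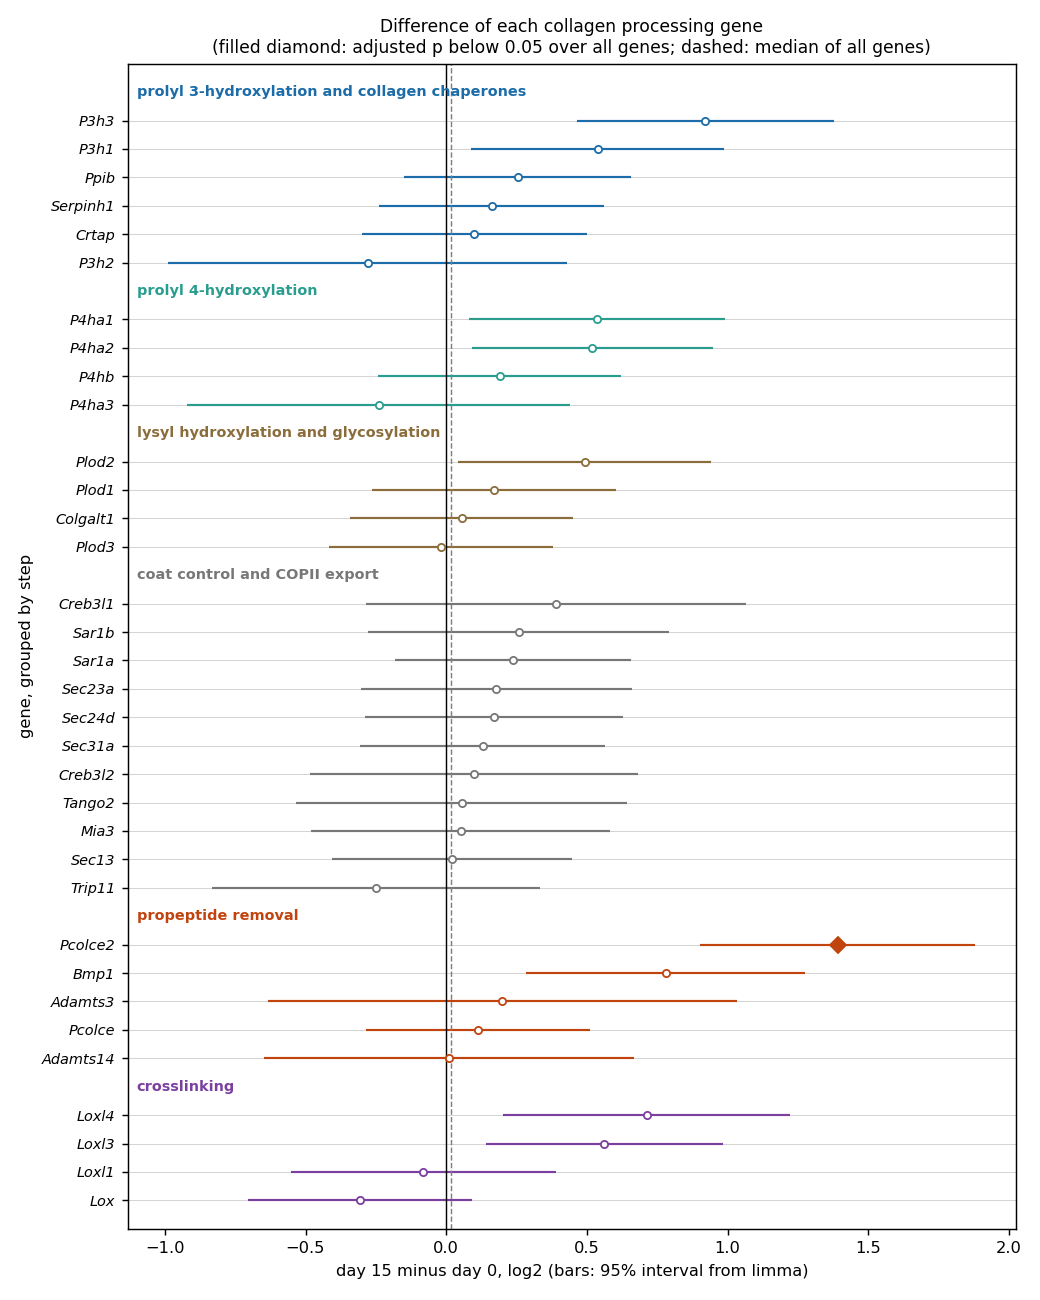
Difference of each gene between day 15 and day 0 in log2, with 95% intervals from limma (n = 2 arrays per group). The filled diamond is the only gene called over all genes, Pcolce2 at 1.39 log2, and 25 of the other genes have an interval that includes 0.

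The prolyl 3-hydroxylation complex and the collagen chaperones act in the ER. P3h3 belongs by name to the prolyl 3-hydroxylase family, as does the enzyme of the classical complex. It had log2 intensities of 11.55 and 11.24 on the day 15 arrays, against 10.50 and 10.44 at day 0. The days did not overlap, and the difference of 0.92 ± 0.18 log2 (SE, 95% interval 0.46 to 1.38) was the largest of the 34 after that of Pcolce2. It did not pass over all genes (limma adjusted p = 0.101). Within replicate 1 the difference was 1.05 and within replicate 2 it was 0.79.

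P3h1, the catalytic subunit of the complex with Crtap and Ppib, had 11.42 and 11.37 on the day 15 arrays, against 11.01 and 10.71 at day 0. The gap of 0.54 ± 0.18 log2 (SE) left the days apart without passing the test (limma adjusted p = 0.310). The partners of P3h1 in that complex differed less in these data, although no test of one gene's difference against another's was made. Crtap, the cartilage-associated protein that holds the complex together, differed by 0.10 log2 (95% interval −0.30 to 0.50), and Ppib, the prolyl isomerase cyclophilin B, by 0.25 (−0.15 to 0.66). Serpinh1, the collagen-specific chaperone Hsp47, differed by 0.16 log2 (−0.24 to 0.56). Each of these 3 had both day 15 arrays above both day 0 arrays, and none was called.

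P3h2, a prolyl 3-hydroxylase best known from basement membrane collagen, was the member of this step with a value below 0. It had 11.64 and 12.45 on the day 15 arrays, against 12.29 and 12.37 at day 0. The day 15 arrays lay on either side of day 0, and without day 15 replicate 1 the difference of −0.28 log2 became 0.12.

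Prolyl 4-hydroxylase joins catalytic alpha subunits to protein disulfide isomerase. P4ha1, the main alpha subunit of most cells, had log2 intensities of 13.29 and 13.09 on the day 15 arrays, against 12.54 and 12.77 at day 0. P4ha2, an alpha subunit described in chondrocytes, had 12.01 and 11.89 on the day 15 arrays, against 11.53 and 11.33 at day 0. For both genes the days were apart, and the differences were of like size, 0.54 ± 0.18 log2 for P4ha1 and 0.52 ± 0.17 for P4ha2 (SE). Neither passed over all genes (limma adjusted p = 0.319 for P4ha1 and 0.305 for P4ha2). P4ha1 differed by 0.76 within replicate 1 and 0.31 within replicate 2, and P4ha2 by 0.48 and 0.56. The third alpha subunit, P4ha3, had 11.50 and 10.76 on the day 15 arrays, against 11.27 and 11.47 at day 0, so its days overlapped. Its difference was 0.23 within replicate 1 and −0.71 within replicate 2. P4hb, the disulfide isomerase that serves as beta subunit and also works without the alpha subunits, differed by 0.19 log2 (95% interval −0.24 to 0.62).

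Of the lysyl hydroxylases, Plod2 had the largest difference. Plod2, which hydroxylates the lysines of the telopeptides, had 12.59 and 12.53 on the day 15 arrays, against 12.22 and 11.92 at day 0. The days were apart, and the difference of 0.49 ± 0.18 log2 (SE) between their means did not pass (limma adjusted p = 0.361). Plod1, the enzyme for lysines of the helix, differed by 0.17 log2 and Plod3, which also transfers glucose to hydroxylysine, by −0.02, with overlapping days for both. The galactosyltransferase Colgalt1, which adds the sugar that Plod3 extends, differed by 0.05 log2 with a 95% interval of −0.34 to 0.45. Its relative Colgalt2, which is not among the 34 genes, had 8.28 and 9.21 on the day 15 arrays, against 6.03 and 6.18 at day 0. It rose by 2.64 log2 (limma adjusted p = 0.0230), a call that held under all 11 alternatives in which this dim gene was tested. The day 0 signal of Colgalt2 may lie near background, so the size of the rise is uncertain. With a pseudocount of 16 it was 2.40 log2.

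None of the 11 genes of ER export and its control was called, beside 1.3% called higher and 0.411% called lower among all genes. None of the 11 had an unadjusted p below 0.05, beside 7.38% of all genes higher and 4.78% lower, so these counts lie near the share over all genes. Their differences ran from −0.25 log2 for Trip11 to 0.39 for Creb3l1 with a median of 0.13. Sar1a, a GTPase that starts coat assembly, was the only 1 of the 11 with its days apart (22.3% of all genes were apart and higher, 17.8% apart and lower), at 12.93 and 12.74 on the day 15 arrays, against 12.63 and 12.56 at day 0. Its paralog Sar1b had 13.09 and 12.59 on the day 15 arrays, against 12.55 and 12.62 at day 0, so that a single array lay apart. The inner coat genes Sec23a and Sec24d differed by 0.18 and 0.17 log2, and the outer coat genes Sec13 and Sec31a by 0.02 and 0.13. All 4 had a 95% interval that included 0, and with 1 array left out the difference ran from −0.01 to 0.37 for Sec23a, 0.05 to 0.29 for Sec24d, −0.09 to 0.13 for Sec13 and 0.02 to 0.24 for Sec31a. Mia3, the receptor TANGO1 that brings procollagen into the coat, differed by 0.05 log2 (95% interval −0.48 to 0.58). Trip11, a golgin of the Golgi whose loss disturbs cartilage in mice, had 9.13 and 9.04 on the day 15 arrays, against 9.63 and 9.04 at day 0. Tango2, named for a screen of secretion genes, had 10.93 and 10.33 on the day 15 arrays, against 10.52 and 10.63 at day 0.

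The ER-anchored transcription factors that switch on secretory genes were uneven between the day 15 arrays. Creb3l1, also called OASIS, had 11.91 and 12.66 on the day 15 arrays, against 11.82 and 11.97 at day 0. Creb3l2, which activates Sec23a in mouse chondrocytes, had 11.57 and 12.17 on the day 15 arrays, against 11.78 and 11.76 at day 0. Replicate 2 of day 15 was the highest array for both, and replicate 1 of day 15 lay among or below the day 0 arrays. Within replicate 2 the differences were 0.69 log2 for Creb3l1 and 0.41 for Creb3l2, and within replicate 1 they were 0.09 and −0.21. The chondrocyte markers Acan and Col2a1 had the same order of day 15 arrays, at 10.22 in replicate 1 and 11.56 in replicate 2 for Acan and 11.28 and 12.23 for Col2a1.

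Removal of the propeptides held the gene with the largest difference. Pcolce2 (probe set 10587880) had log2 intensities of 12.04 and 12.20 on the day 15 arrays, against 10.91 and 10.55 at day 0. As deposited these were intensities of 4230 and 4760 at day 15 and 1912 and 1464 at day 0. The gap between the days exceeded the gap within either day, and the gene rose by 1.39 ± 0.20 log2 (SE, 95% interval 0.90 to 1.88). The difference was 1.13 within replicate 1 and 1.66 within replicate 2. The call (limma adjusted p = 0.0364) held with day 0 replicate 1 left out (0.0469) and was lost without day 0 replicate 2 (0.124), day 15 replicate 1 (0.113) or day 15 replicate 2 (0.123), and with each array centred on its median (0.0505). Over these fits the difference stayed between 1.21 and 1.57 log2.

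Bmp1, the C-proteinase that Pcolce2 assists, had 11.48 and 11.54 on the day 15 arrays, against 10.93 and 10.52 at day 0. The days were apart and the difference was 0.78 ± 0.20 log2 (SE, 95% interval 0.28 to 1.28), but it did not pass over all genes (limma adjusted p = 0.185). It was 0.54 within replicate 1 and 1.02 within replicate 2. Pcolce, the other enhancer of this proteinase, gave nearly the same signal on all arrays, 13.88 and 13.85 at day 15 and 13.79 and 13.71 at day 0.

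Of the N-proteinases, Adamts14 was dim, at 8.34 and 8.18 on the day 15 arrays, against 8.61 and 7.90 at day 0, the only 1 of the 34 genes below the median signal. Adamts3, which trims type II procollagen, had 16 probe sets that did not agree. The brightest gave 10.59 and 10.46 on the day 15 arrays, against 10.83 and 9.82 at day 0, a difference of 0.20 log2. The other 15 probe sets were all lower at day 15, by 0.34 to 0.94 log2 in size, and the mean of all 16 gave −0.66 log2 (limma adjusted p = 0.772). Within replicate 1 the day 15 signal was below day 0 for 16 of 16 probe sets, and within replicate 2 for 14 of 16. Replicate 1 exceeded replicate 2 for 16 of 16 probe sets at day 0, by a median of 1.58 log2, and for 14 of 16 at day 15, by a median of 0.83. Both day 15 arrays lay below both day 0 arrays for 2 of the 16 probe sets. The probe sets of 1 gene are not independent, and no direction is given for Adamts3.

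**Figure D3:**
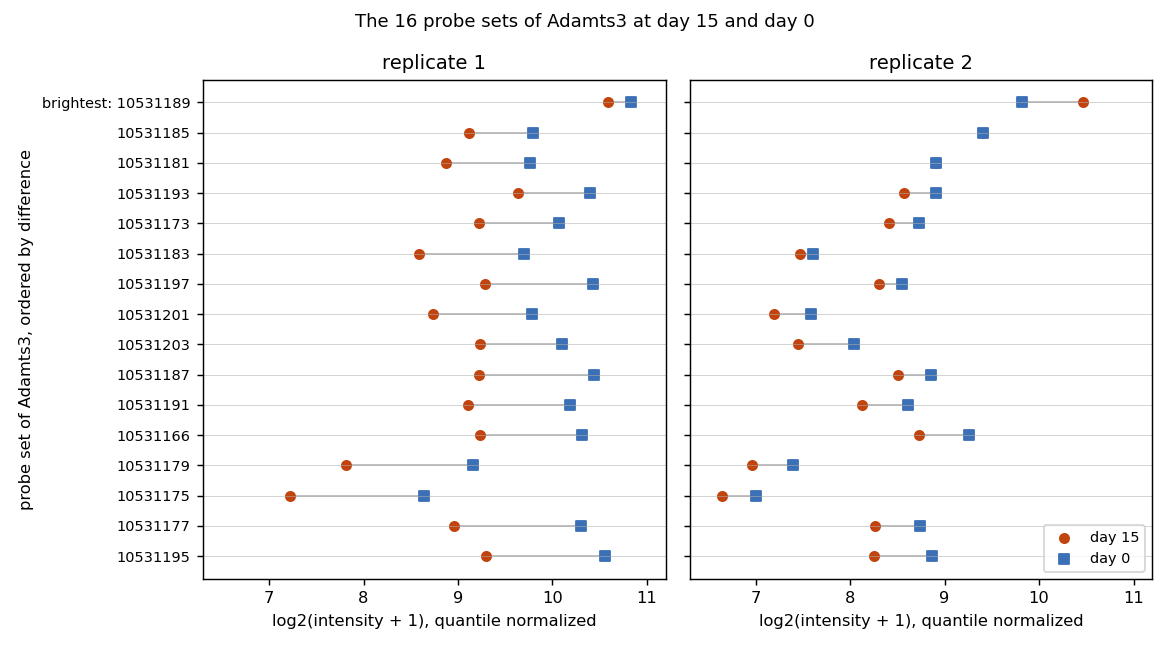
The 16 probe sets of Adamts3 on the log2 intensity scale (x axis), with replicate 1 in the left panel and replicate 2 in the right, day 15 as orange circles and day 0 as blue squares. In replicate 1 every circle lies left of its square, and in replicate 2 that holds for 14 of 16, the brightest probe set being the clearest exception.

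Values of the lysyl oxidase family lay on both sides of 0, and none of the 4 genes was called. Loxl4 had 12.34 and 12.64 on the day 15 arrays, against 11.94 and 11.61 at day 0, a difference of 0.71 ± 0.21 log2 (SE), and its other probe set gave 1.11. Loxl3 had 11.72 and 11.61 on the day 15 arrays, against 11.01 and 11.19 at day 0, a difference of 0.56 ± 0.17 (SE). Both had their days apart and neither passed over all genes (limma adjusted p = 0.232 for Loxl4 and 0.255 for Loxl3). Loxl4 differed by 0.40 within replicate 1 and 1.03 within replicate 2, and Loxl3 by 0.71 and 0.41. Lox, the founding member that crosslinks collagen and elastin, had the lower value at day 15. It had 13.29 and 13.20 on the day 15 arrays, against 13.54 and 13.56 at day 0, a difference of −0.31 log2 with a 95% interval of −0.70 to 0.09 (limma adjusted p = 0.566). Lox was the only 1 of the 34 genes with both day 15 arrays below both day 0 arrays. Loxl1, the member tied to elastic fibers, had 12.18 and 12.28 on the day 15 arrays, against 12.14 and 12.49 at day 0, so its days overlapped.

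**Figure D4:**
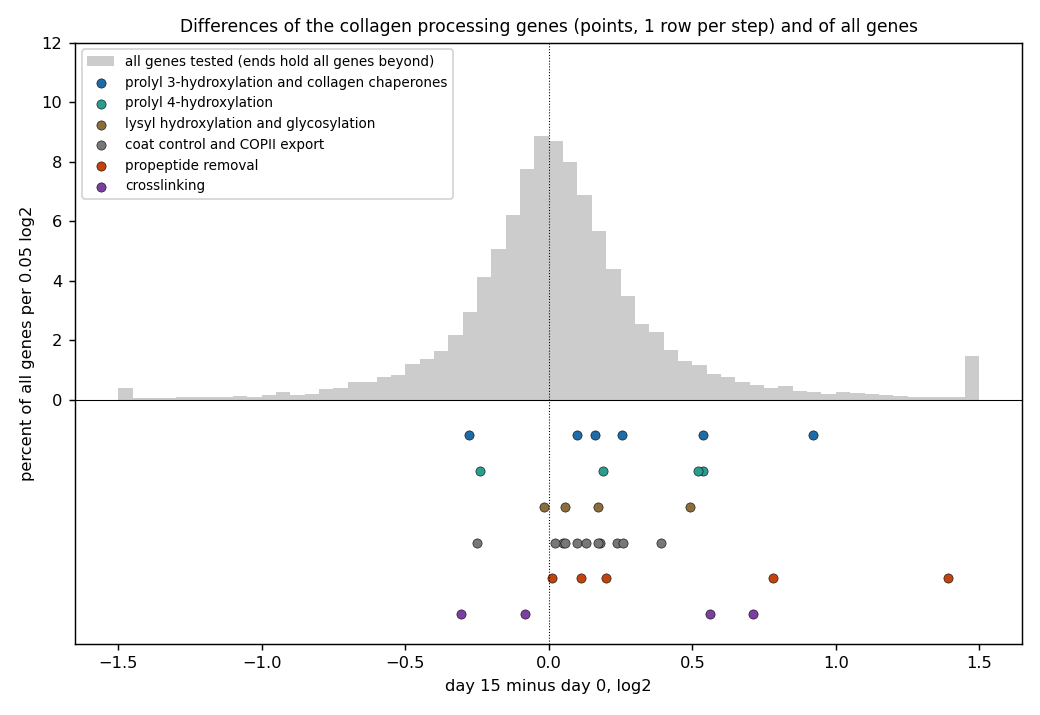
Differences between day 15 and day 0 in log2 for all 19938 genes (grey bars, percent of genes per bar, with genes beyond either end gathered in the end bars) and for the 34 genes (points, 1 row per step). The 11 export genes lie between −0.25 and 0.39, while the propeptide row reaches 1.39 and the crosslinking row spans −0.31 to 0.71.

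Further genes of the same pathway were counted as groups. Of 14 other collagen processing genes measured, Colgalt2 rose (1 of 14, beside 1.3% of all genes) and none fell, and 10 of the 14 (71.4%, against 22.3% of all genes) had both day 15 arrays above both day 0 arrays. Among them Fkbp14, an ER isomerase that binds procollagen, had 12.83 and 12.39 on the day 15 arrays, against 11.79 and 11.61 at day 0, a difference of 0.91 log2 (limma adjusted p = 0.147). Of 18 other genes of the COPII coat and its tethers none was called, beside 1.3% of all genes called higher and 0.411% called lower. Their median difference was 0.02 log2. Of 18 genes of general ER folding none was called, beside the same shares of all genes, and the median was 0.10 log2. A difference above 0 was found for 15 of these 18 (83.3%), a share like that of the 34 genes (82.4%). Both day 15 arrays lay above both day 0 arrays for 4 of the 18 (22.2%, against 44.1% of the 34 genes). The stress factor Ddit3 among them differed by 0.95 log2 (limma adjusted p = 0.0634), and it was called with the replicate number as a block (0.0413). Of 21 collagen chains, which are the substrates, Col10a1, Col2a1 and Col11a1 rose (14.3%, beside 1.3% of all genes). None fell (beside 0.411%), and the median was 0.15 log2. The call of Col10a1 held under all 12 alternatives. The calls of Col2a1 and Col11a1 were lost when day 0 replicate 1 (0.0689 and 0.0757), day 0 replicate 2 (0.103 and 0.0937) or day 15 replicate 2 (0.0504 and 0.0782) was omitted, and that of Col2a1 also when only probe sets with 1 symbol were quantile normalized (0.0508). The main chains of type I collagen gave 0.01 log2 for Col1a1 and 0.08 for Col1a2.

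P4ha1, P4ha2 and Plod2 are known targets of the hypoxia-inducible factor HIF-1, so other HIF-1 targets were set beside them. Of 14 measured, Egln3, a prolyl hydroxylase that senses oxygen, and Car9, a carbonic anhydrase, rose (14.3%, beside 1.3% of all genes). None fell, beside 0.411% of all genes. Egln3 had 10.69 and 10.46 on the day 15 arrays, against 8.26 and 8.48 at day 0, a difference of 2.20 log2 (limma adjusted p = 0.00734). Car9 differed by 1.16 log2 (limma adjusted p = 0.0469), and its call was lost on omitting any single array (0.0916 to 0.164) and under the other scalings (0.0524 to 0.0718). Both day 15 arrays were above both day 0 arrays for 10 of the 14 (71.4%, against 22.3% of all genes), and the median difference was 0.54 log2. Pgk1 was among the 10 with a difference of 0.09 log2. The days overlapped for Vegfa (0.25 log2), Aldoa (0.23) and Ldha (0.11). Slc2a3, a glucose transporter, differed by −0.98 log2 (limma adjusted p = 0.227). Culture density and oxygen are not given in the labels, and their part in these values was not tested.

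The upstream sequences of 4 genes are shown because they include the called gene and the leading genes of both prolyl hydroxylation steps. RefSeq windows of build GRCm38.p6 were matched by symbol for 27 of the 34 genes. Lox, Loxl1, Loxl3, Bmp1, P3h2, Plod2 and Creb3l1 had no window and were not searched. Each sequence is the 250 bases before the annotated start, 5′ to 3′ on the strand of the gene. Capitals mark the hypoxia response core, searched as ACGTG and GCGTG on both strands.
Pcolce2, chr9:95637378-95637627, plus strand: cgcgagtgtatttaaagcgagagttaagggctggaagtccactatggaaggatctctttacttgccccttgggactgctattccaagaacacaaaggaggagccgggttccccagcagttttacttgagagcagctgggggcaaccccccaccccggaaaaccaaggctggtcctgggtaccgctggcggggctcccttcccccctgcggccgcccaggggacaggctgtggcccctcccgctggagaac
P3h3, chr6:124857718-124857967, minus strand: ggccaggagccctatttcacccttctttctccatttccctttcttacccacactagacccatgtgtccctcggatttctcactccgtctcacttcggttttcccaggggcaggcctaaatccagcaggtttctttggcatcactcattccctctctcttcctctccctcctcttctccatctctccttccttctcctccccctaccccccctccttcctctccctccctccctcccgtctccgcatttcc
P4ha1, chr10:59323046-59323295, plus strand: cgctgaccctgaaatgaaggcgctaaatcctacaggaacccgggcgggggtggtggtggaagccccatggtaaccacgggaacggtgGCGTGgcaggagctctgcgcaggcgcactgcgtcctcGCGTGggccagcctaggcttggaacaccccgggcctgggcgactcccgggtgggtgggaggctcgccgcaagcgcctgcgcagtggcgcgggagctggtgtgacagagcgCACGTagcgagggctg
P4ha2, chr11:54100674-54100923, plus strand: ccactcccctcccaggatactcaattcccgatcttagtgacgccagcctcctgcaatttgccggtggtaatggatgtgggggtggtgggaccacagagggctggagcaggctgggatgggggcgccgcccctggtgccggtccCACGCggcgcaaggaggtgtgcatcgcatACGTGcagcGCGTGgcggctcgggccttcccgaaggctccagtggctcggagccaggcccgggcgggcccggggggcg

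P4ha1 and P4ha2 each held 3 matches to the core, and the windows of Pcolce2 and P3h3 held 0. The core was found in 22 of 32 windows of the matched collagen processing genes, some of which have overlapping windows (68.8%), in 46.2% of the windows of all genes tested and in 38.6% of all windows of the table. The collagen processing windows also held more CpG dinucleotides, a median of 18.5 against 11 in windows of all genes tested, and every match contains a CpG. Matches are a description of these letters and do not mark binding sites. With Adamts3 taken by its brightest probe set, the 19 genes with a match had differences from −0.02 log2 for Plod3 to 0.71 for Loxl4. Besides Loxl4, those above 0.5 were P3h1, P4ha1 and P4ha2. Adamts3, which is among the 19, gave −0.66 as the mean of its probe sets. The genes with a window and no match ran from −0.25 log2 for Trip11 to 1.39 for Pcolce2, with P3h3 at 0.92 and the others below 0.5. The genes without a window ran from −0.31 log2 for Lox to 0.78 for Bmp1, with Loxl3 at 0.56 and Plod2 at 0.49.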

How the data were processed

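Total RNA of 4 ATDC5 samples was measured on 1-colour arrays after biotin labelling, per the labels' protocols. The authors deposited 1 processed intensity per probe set and array on a linear scale, judged from values between 0.72 and 23103. Background correction, summarization and scaling are steps not given in the sources used here, and the genome build was mm9 per the submitters' processing notes. Of 35512 probe sets, 21789 had 1 gene symbol and gave 19938 genes, the brightest probe set standing for each. Symbols were updated by gene ID through a table of GRCm38.p6.

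Values were log2(intensity + 1), quantile normalized over all probe sets because array medians differed by 0.20 log2. Differences between the days were tested with limma 3.58.1 (R 4.3.3, group as the only term), adjusted over all genes by the Benjamini-Hochberg method and called below 0.05. SE is limma's moderated standard error. The number of arrays limits the precision, and no detection calls were used. Figures used matplotlib 3.10.9.

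Genes were described per array if called, or if the days were apart and their means differed by at least 0.5 log2. Other genes given per array were chosen after their values were seen. The members and lists were chosen with earlier results of these data known. The 12 alternatives changed scaling, variance model, filter, pseudocount, probe set choice, replicate block or left out 1 array. The counts of genes above 0, at an unadjusted p and with days apart were added to them after seeing the data.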

Additional observations from a re-analysis of the deposited data

How the results depend on the processing

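Pcolce2 kept its direction under all 12 alternatives, and its call under 8. The number of genes called higher, 1, became 0 with median centring and 0 to 1 with 1 array left out, where the spread comes from the day that keeps its pair, and the number called lower was 0 under all 12. The number higher at an unadjusted p below 0.05 was 9, against 5 with median centring and 4 to 8 with 1 array left out (4 without day 0 replicate 2, 5 without day 15 replicate 1). The median difference ranged from 0.10 to 0.25 log2 and the number above 0 from 26 to 29. Signs changed only for genes that were not called. Plod3 became 0.0213 on the deposited scaling, Adamts14 −0.0549 when only probe sets with 1 symbol were quantile normalized, Adamts3 −0.66 as the mean of its probe sets and Col1a1 −0.0172 with median centring. With 1 array left out, differences ran from −0.542 to 0.0449 for Trip11, −0.0857 to 0.127 for Sec13, −0.24 to 0.35 for Tango2, −0.0480 to 0.0130 for Plod3, −0.0125 to 0.370 for Sec23a, −0.19 to 0.29 for Mia3, −0.30 to 0.70 for Adamts3, −0.35 to 0.37 for Adamts14, −0.255 to 0.0917 for Loxl1, −0.68 to 0.12 for P3h2, −0.61 to 0.13 for P4ha3, −0.20 to 0.40 for Creb3l2, −0.18 to 0.20 for Col1a1 and −0.0801 to 0.24 for Col1a2. The cause of these changes was not tested. Same-numbered samples deviated together across genes (correlation 0.403), but the labels do not say what the number marks. With the replicate number as a block 1 gene was again called (Pcolce2, limma adjusted p = 0.0293; P3h3, 0.0510), the calls of the other members did not change, and of the 11 further genes fitted this way (Colgalt2, Fkbp14, Ddit3, Egln3, Car9, Slc2a3 and 5 collagen chains) only that of Ddit3 did (0.0413), and 628 of all genes were called, against 342 without the block. With day 15 replicate 1 omitted that count over all genes was 178, and with day 15 replicate 2 omitted it was 208. Dim genes such as Adamts14, and Colgalt2 at day 0, may lie near background.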
